A study of Homo sapiens with 38 samples.

Results

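H9 is an established human embryonic stem cell line. CHIR99021 is a small molecule that inhibits the kinase GSK3, and it is widely used to switch on WNT signalling from inside the cell. The comparison described here is 8 h of 10 µM CHIR99021 against the untreated 0 h cells of the same series of cultures, across all genes. It uses 4 of the 38 libraries of the study, 2 at CHIR 0 h and 2 at CHIR 8 h, chosen by their column names alone and not by any measured value.

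All 4 libraries came from unmodified H9 cells. The cells were kept in mTeSR1 on Geltrex, and a confluent layer was plated on Matrigel 16 h before treatment. At 0 h the medium was exchanged for RPMI1640 with B27 lacking vitamin A, and CHIR99021 was added with it. No culture received the new medium alone, so treatment, medium and 8 h of culture cannot be told apart in what follows. The labels call the 2 libraries of a group biological repeats and say nothing more of their origin, so the spread between them may be technical. The p-values rest on this spread as estimated over the libraries of all groups of the study, not of the CHIR groups alone. For comparison, 2 other arms have their own 0 h and 8 h libraries, again 2 of each, in the same medium at 8 h. The Wnt3a arm is H9 with 240 ng/ml recombinant Wnt3a. The bcat arm is H9 with a stably integrated, doxycycline-regulated deltaN90 mutant of beta-catenin, which escapes degradation, compared before and after 1 µg/ml doxycycline. The labels do not say whether the bcat cells are 1 clone.

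In the WNT pathway, a secreted WNT protein binds a Frizzled receptor and the co-receptor LRP. This stops a complex of AXIN, APC, casein kinase and GSK3 from marking beta-catenin for degradation. Beta-catenin then enters the nucleus and joins TCF and LEF factors at their target genes, many of which encode inhibitors of the pathway. In pluripotent cells WNT signalling is known for starting the primitive streak, the source of mesoderm and endoderm, and for posterior fates. GSK3 also phosphorylates many proteins outside this pathway, among them glycogen synthase, MYC and JUN.

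The 4 libraries held 20.5 M to 35.2 M estimated counts (M, 1e6). Nuclear ribosomal RNA took 18.8% and 7.86% of the counts at 0 h, and 5.47% and 7.52% at 8 h. Levels are given below in CPM, counts per 1e6 counts of the library total after scaling by edgeR's trimmed mean of M-values (TMM). The log2 fold changes come with their standard error and with a p-value from edgeR's quasi-likelihood test, adjusted by the Benjamini-Hochberg method over 24304 genes, and a gene is called where this is below 0.05. As checks on the label, the 7 markers of pluripotent stem cells summed to 4317 and 4403 CPM at 0 h and to 3722 and 3869 CPM at 8 h. The 6 markers of definitive endoderm summed to 3.72 CPM or less in each of the 4 libraries, and SOX17 was at 0 in all of them. Of the 6, 1 was called higher and 1 lower. The higher was FOXA2, with 1 count over both 0 h libraries and 10 over both at 8 h. Of the markers of trophoblast and amnion, GATA3 was at 0 throughout, and the 6 of 7 in the table summed to 3.42 CPM or less. The fibroblast list (443.8 to 454.7 CPM at 0 h, 260.3 to 269.3 CPM at 8 h) was carried mostly by THY1, which stem cells express too, and the collagen-binding proteins DCN and LUM were under 1 CPM. Neural progenitor markers summed to 282.1 to 299.5 CPM over the 4 libraries, carried by the intermediate filament NES and the tubulin TUBB3. Those of mesoderm and endothelium summed to 160.9 and 162 CPM at 0 h and to 62.05 and 68.86 CPM at 8 h, which was nearly all KDR, a VEGF receptor that stem cells express too. KDR fell 2.52-fold (adjusted p = 0.000157), and the mesoderm factors MESP1 and HAND1 were under 1 CPM throughout. In bulk RNA, fewer cells of a type and less RNA per cell cannot be told apart.

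After 8 h, 5075 of the 24304 genes tested had changed (20.9%), of which 2235 were higher (9.2% of those tested) and 2840 lower (11.7%). At an unadjusted p below 0.05 the number was 7657. The rises were fewer but reached further: 163 genes rose and 71 fell at least 8-fold, and 98 rose and 26 fell at least 16-fold. Of the called genes, 1281 differed by less than 1.5-fold. Going from below 0.5 CPM in 1 group to at least 5 CPM in the other, 14 genes came on and 1 went off. The median change over all tested genes was -0.014 (log2). Protein-coding genes were called in 27.6% of 15874 cases (1891 higher, 2489 lower), long intergenic RNAs in 13.1% of 672, and antisense RNAs in 8.78% of 638.

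The count rests on how libraries are scaled and on each library. Scaled by library totals alone, 1281 genes were called, 59.02% of them higher in place of 44.04%. On that scaling 72 of the 232 genes named by rule lost their call and none changed sign. List counts that moved by over 1.5 times on it are given below as the count with library totals, for lists with at least 6 members called in that direction. Each library left out in turn gave 3355 genes without the first 0 h library, 3194 without the second, 2898 without the first 8 h library and 3836 without the second.

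**Figure D1:**
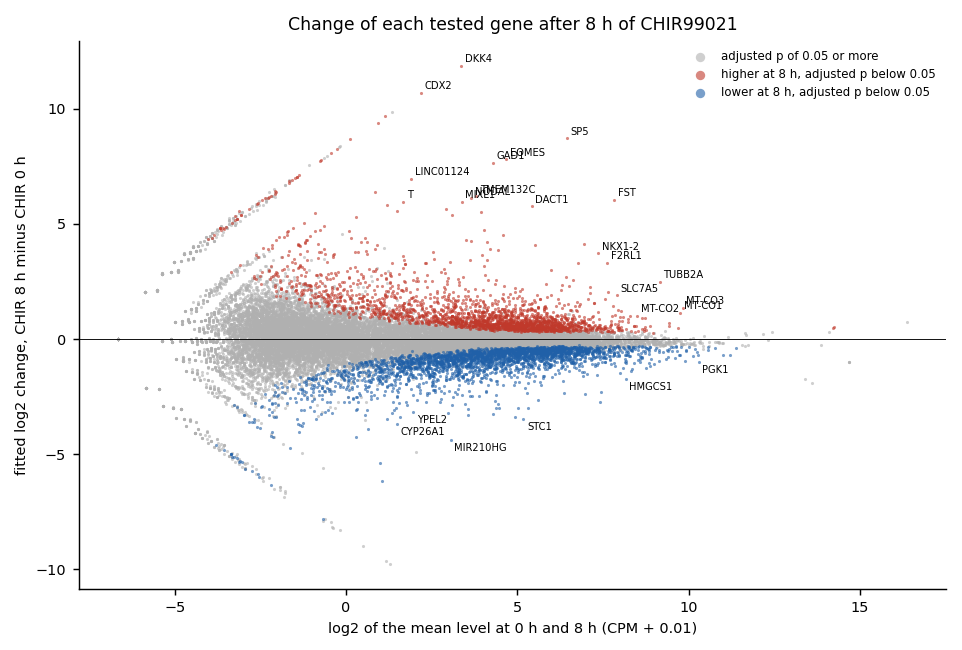
Each point is a tested gene, with the log2 of its mean level over the 4 CHIR libraries (CPM + 0.01) on the horizontal axis and the fitted log2 change from 0 h to 8 h on the vertical axis. Genes with an adjusted p below 0.05 are coloured by direction, and the points reach further from 0 above than below, with 98 genes at least 16-fold higher and 26 at least 16-fold lower.

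The feedback inhibitors of WNT signalling were among the steepest rises. Of 26 tested genes for feedback regulators and secreted antagonists, 9 rose, 3 fell and 14 were not called. The list also holds the R-spondin receptor LGR4, which is not an inhibitor. The median change of the list was 0.61 (log2) against -0.014 over all genes. AXIN2, a scaffold of the destruction complex and a standard target of the pathway, stood at 19.9 and 20.3 CPM in the 0 h libraries and at 210 and 186 CPM at 8 h, a rise of 3.30 ± 0.20 (log2, SE; adjusted p = 1.53e-12). RNF43, a ubiquitin ligase that removes Frizzled receptors from the cell surface, went from 2.87 and 1.92 CPM to 35.2 and 34.2 CPM, 14.9-fold higher (adjusted p = 1.26e-08). Its partner ZNRF3 was at 32.2 and 32.7 CPM before and 41.2 and 39.3 CPM after, a difference of 0.31 ± 0.18 that was not called.

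APCDD1, a membrane-bound inhibitor of WNT, was at 1.51 and 2.49 CPM at 0 h and at 19.8 and 24.9 CPM at 8 h (3.42 ± 0.20). NKD1, which binds Dishevelled, rose from 2.92 and 6.90 CPM to 82.4 and 90 CPM (4.06 ± 0.30, and 4.88 without the second 0 h library). DKK4, a secreted antagonist that binds LRP co-receptors, had no count in either 0 h library and reached 25.2 and 15.7 CPM, at least 388-fold higher when the 0 h group is set to a floor of 3 counts over both libraries. NOTUM, an enzyme that strips the lipid from WNT proteins, had 2 counts over both 0 h libraries and 48 over both at 8 h, a ratio of 22.6 with a 95% counting interval of 5.93 to 192. In each of these genes both 8 h libraries lay above both 0 h libraries, but the groups did not overlap in 62.8% of all tested genes either.

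The 3 genes that fell were already expressed in the untreated cells. SFRP1, which sequesters WNT proteins outside the cell, fell from 990 and 1008 CPM to 563 and 579 CPM (0.81 ± 0.12 lower on the log2 scale, adjusted p = 6.28e-06). DKK3 fell 2.32-fold, from 14.1 and 14.8 CPM to 6.17 and 6.31 CPM. LGR4, a receptor for R-spondins that protects Frizzled, fell 2.57-fold, from 104 CPM in each 0 h library to 38.8 and 42.2 CPM. LGR5, its better known relative, did not exceed 0.195 CPM in any of the 4 libraries.

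Among WNT ligands, 5 of 13 tested genes rose and none fell. The number was 3 without either 0 h library or without the first 8 h library. WNT5B, a ligand of the non-canonical branch, went from 1.21 and 1.15 CPM to 28.7 and 33.6 CPM, 26.3-fold higher (adjusted p = 1.08e-17). WNT10B was at 0.503 and 0.326 CPM at 0 h and at 18.3 and 14.7 CPM at 8 h, 41.3-fold higher. WNT3, the ligand of the early streak, moved from 0.453 and 0.355 CPM to 1.20 and 1.28 CPM, and its call was lost without the second 0 h library (adjusted p = 0.072). WNT8A gave at most 0.178 CPM and was not called.

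Receptors moved both ways, 4 of 16 higher and 3 lower, with a median change of 0.01 (log2). FZD10 rose 13.5-fold, from 0.503 and 1.01 CPM to 13.5 and 8.16 CPM (3.76 on the log2 scale, and 4.44 without the second 0 h library). ROR2, the co-receptor that binds WNT5-type ligands, rose 3.63-fold, from 4.07 and 4.15 CPM to 14.2 and 15.7 CPM. The receptors FZD5 and FZD2 fell by 1.01 ± 0.19 and 1.03 ± 0.18 on the log2 scale. FZD7, a Frizzled receptor known for its role in human embryonic stem cells, stood at 271 and 261 CPM before and 272 and 274 CPM after, and the co-receptor LRP6 differed by -0.02 ± 0.11. Neither was called.

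Of the destruction complex and its regulators, 26.7% were called, against 20.9% over all genes and 27.6% over protein-coding genes. Of the 15 members 2 rose and 2 fell. With any 1 library left out, 1 or 2 rose and 1 or 2 fell. The target of the drug, GSK3B, was at 69.1 and 67.8 CPM at 0 h and at 67.4 and 58.2 CPM at 8 h, and GSK3A differed by -0.19 ± 0.21. The transcript of beta-catenin, CTNNB1, fell from 783 and 795 CPM to 595 and 575 CPM, 1.35-fold lower (adjusted p = 0.00207). These are RNA levels, and the protein was not measured.

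Nuclear factors of the pathway had 7 of 15 genes higher and 2 lower, and with any 1 of the 4 libraries left out at most 1 was lower. LEF1 was nearly silent at 0 h (0.553 and 0.711 CPM) and reached 32.0 and 27.8 CPM, 45.7-fold higher, while TCF7 rose 4.55-fold, from 5.08 and 3.02 CPM to 19.6 and 16.4 CPM. TCF7L1, which acts as a repressor in pluripotent cells, went the other way, from 23.8 and 19.8 CPM to 9.97 and 12.2 CPM. That call (adjusted p = 0.00928) was lost without the first 0 h library (0.087) and without the first 8 h library (0.13). TCF7L2 was not called at -0.25 ± 0.20. The co-repressor TLE3 rose 2.89-fold and the co-activator PYGO1 2.79-fold. SP5, a zinc finger factor that is a direct target of beta-catenin, rose from 0.503 and 0.355 CPM to 183 and 166 CPM, 418-fold.

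The core TCF and LEF motif, ATCAAAG on either strand, was looked up in the promoters of these lists, taken from RefSeq (GRCh38.p14) as the 250 bases before and 50 after each gene's annotated start. It occurs in 2.64% of all 27305 promoters. Among the lists of WNT nuclear factors and of primitive streak genes it occurred in 1 promoter each, of 13 and 10 found, and in none of the 14 for feedback genes or the 11 for posterior homeobox factors. The 2 promoters with a match belong to genes that rose 418-fold (SP5) and 62.5-fold (MIXL1), and their upstream stretches are shown with the motif, here on the opposite strand, in capitals. The SP5 stretch is chr2:170715178-170715284 and the MIXL1 stretch chr1:226223538-226223644, both on the plus strand.
SP5: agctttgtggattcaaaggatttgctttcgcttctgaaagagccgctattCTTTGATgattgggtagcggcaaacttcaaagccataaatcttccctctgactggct
MIXL1: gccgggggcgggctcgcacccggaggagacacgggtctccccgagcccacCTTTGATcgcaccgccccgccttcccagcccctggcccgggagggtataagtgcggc

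**Figure D2:**
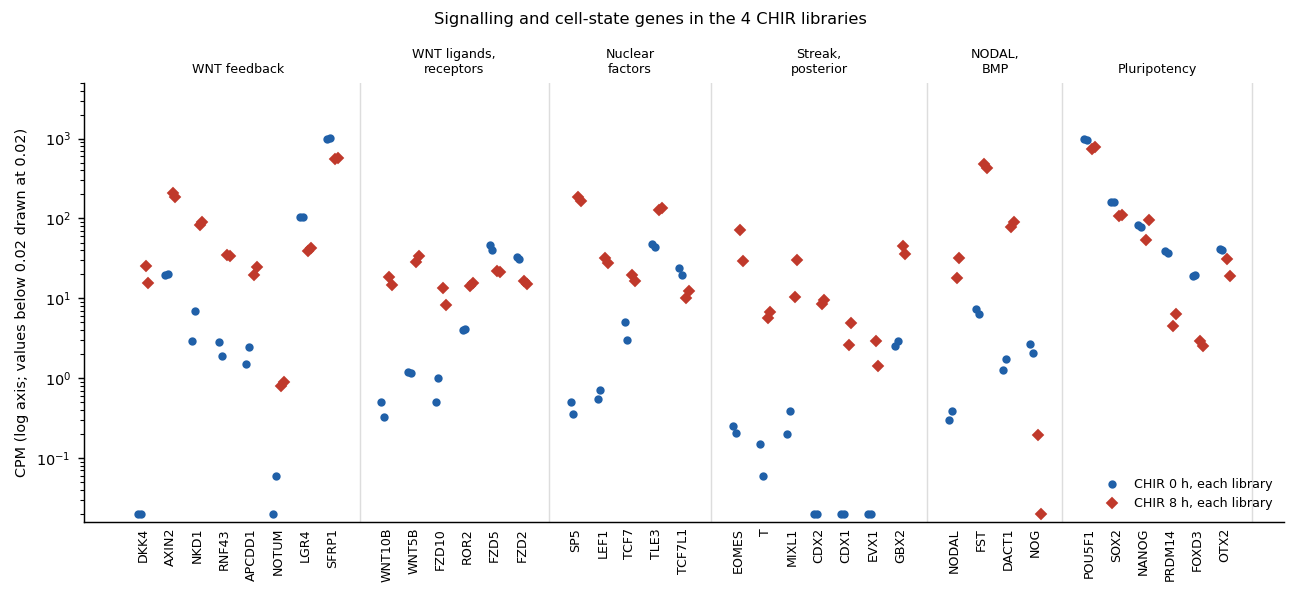
Each point is 1 library, with genes along the horizontal axis and CPM on a logarithmic vertical axis (values below 0.02 are drawn at 0.02), circles for the 2 CHIR 0 h libraries and diamonds for the 2 CHIR 8 h libraries. The libraries of a group lie close together for most genes, as for AXIN2 at 19.9 and 20.3 against 210 and 186 CPM, while the 8 h libraries are spread for EOMES (72.1 and 29.6 CPM) and MIXL1 (10.4 and 30.5 CPM), and NANOG is the gene whose groups overlap.

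Of the genes of the primitive streak and mesendoderm, 5 of 19 tested rose and 2 fell, with a median change of 0.00. The share called was 36.8%, against 20.9% over all genes and 27.6% over protein-coding genes. Without the first 8 h library 3 rose, and without the second 8 h library 1 fell. T, the brachyury factor of early mesoderm, rose from 0.151 and 0.0592 CPM to 5.69 and 6.78 CPM (62.6-fold, adjusted p = 7.33e-12), a log2 change of 5.97 that was 6.58 without the first 0 h library and 5.31 without the second. EOMES, a T-box factor of mesendoderm, rose 223-fold and MIXL1, a homeobox factor of the streak, 62.5-fold. The 8 h libraries disagreed on both in opposite directions, EOMES being higher in the first and MIXL1 in the second. The log2 change of EOMES was 7.80, and 7.01 without the first 8 h library. That of MIXL1 was 5.97, and 5.02 without the second 8 h library, 6.57 without the first and 6.6 without the second 0 h library. Markers of later or more anterior states were near the detection limit: GSC, of the organizer, stayed at or below 0.14 CPM, MESP1 at or below 0.0592 CPM, and neither was called. HHEX, of anterior endoderm, fell from 1.31 and 1.04 CPM to 0.223 and 0.0949 CPM.

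Posterior homeobox factors had the largest median change of the 50 lists described, 3.88 (log2), or 3.5 with genes that had no count at 0 h set at their lower bound. Of 15 tested genes 8 rose and 2 fell. Without the first 8 h library 5 rose, and with any 1 of the 4 libraries left out 1 fell. CDX2 and CDX1, caudal-type factors of the posterior embryo, had no count at 0 h. CDX2 reached 8.60 and 9.44 CPM at 8 h, at least 159-fold higher, and CDX1 reached 2.62 and 4.93 CPM, at least 62.2-fold higher. EVX1, a factor of the posterior streak, went from no count to 2.90 and 1.42 CPM (at least 42.1-fold). GBX2, a factor of the hindbrain border and the posterior epiblast, rose 14.7-fold, from 2.51 and 2.96 CPM to 45.7 and 35.9 CPM. NKX1-2, which is expressed in the caudal epiblast, was present at the start (23.5 and 22.9 CPM) and rose 13.1-fold to 308 and 302 CPM.

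Pluripotency genes fell more often than they rose, 10 against 3 of 24 in the primed list (median -0.32; 4 falls with library totals), yet the central factors fell little. POU5F1 was at 985 and 974 CPM at 0 h and at 736 and 792 CPM at 8 h, 1.28-fold lower (adjusted p = 0.0129). The call was lost without the first 0 h library (0.073), the second 0 h library (0.062) or the first 8 h library (0.14). SOX2 fell 1.46-fold, from 159 and 160 CPM to 109 CPM in each 8 h library, and lost its call without the first 8 h library (0.061). NANOG was at 82.8 and 77.3 CPM before and at 53.6 and 94.9 CPM after, so its groups overlapped and it was not called.

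The steep falls were in other factors of the primed state. PRDM14, a repressor of somatic genes, fell 7.08-fold, from 38.9 and 36.7 CPM to 4.47 and 6.31 CPM (adjusted p = 2.30e-11). FOXD3 fell 7-fold, from 19.1 and 19.9 CPM to 2.96 and 2.56 CPM. USP44, a deubiquitinase abundant in embryonic stem cells, fell 2.76-fold from 363 and 391 CPM. POU3F1, a POU factor of the later epiblast and of neural fate, fell 9.79-fold, from 22.4 and 20.5 CPM to 2.23 and 2.13 CPM. The zinc finger factors ZIC2 and ZIC5 fell 1.94-fold and 1.82-fold. From the list of naive pluripotency, KLF5 rose 10.1-fold and KLF4 4.44-fold, from at most 1.76 CPM at 0 h. In that list 3 of 13 genes rose and 2 fell, 1 without either 8 h library.

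Among anterior neural factors 4 of 16 fell and 1 rose, 31.2% called against 27.6% over protein-coding genes. HMX2 fell 10.5-fold, from 5.83 and 4.97 CPM to 0.307 and 0.759 CPM (-3.39 on the log2 scale, and -4.11 without the second 8 h library), and HESX1, a factor of the forebrain and pituitary, fell 2.90-fold. SHISA2, which retains Frizzled and FGF receptors inside the cell and is a marker of anterior tissue, fell 9.65-fold, from 34.0 and 37.1 CPM to 4.75 and 2.37 CPM (-3.27 on the log2 scale, and -3.90 without the first 8 h library). The rise in the anterior list was ZIC1 (1.14 on the log2 scale), a call lost in the fits that left out either 0 h library or the first 8 h library.

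In the NODAL and ACTIVIN pathway 6 of 20 genes rose and 4 fell, 2 of the latter without the second 0 h library. NODAL itself, the ligand, rose from 0.302 and 0.385 CPM to 18 and 31.8 CPM, 69-fold (adjusted p = 3.94e-13). FST, the secreted antagonist that binds ACTIVIN, rose 65.8-fold, from 7.29 and 6.43 CPM to 475 and 423 CPM. DACT1, an inhibitor of Dishevelled, rose 54.4-fold, from 1.26 and 1.75 CPM to 78.0 and 91.0 CPM. The feedback antagonists of NODAL in the same list did not follow it. LEFTY1 was at 0.251 and 0.503 CPM at 0 h and at 0.112 and 0.664 CPM at 8 h, and LEFTY2 differed by -0.72 ± 0.45, neither being called. SKIL, a repressor of SMAD activity, fell 1.92-fold.

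The BMP list held 5 rises and 4 falls in 20 genes. The rises numbered 3 without either 0 h library and 2 without the first 8 h library. MSX2, a homeobox target of BMP, rose 7.33-fold, from 0.402 and 0.622 CPM to 4.52 and 3.27 CPM, whereas the target ID1 fell 1.93-fold and the inhibitory SMAD6 fell 3.06-fold. NOG, a secreted BMP antagonist, was at 2.66 and 2.04 CPM at 0 h, at 0.195 CPM in the first 8 h library and without a count in the second. Its fitted change of -4.25 ± 0.63 (log2) therefore depends on the few counts left, and was -8.71 without the first 8 h library. GREM1, another BMP antagonist, moved up, from 0.654 and 0.592 CPM to 2.68 and 1.75 CPM (3.64-fold).

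Of 20 FGF ligands and receptors 4 rose and 6 fell, with a median change of -0.05 (log2). FGF19, a secreted ligand, rose 4.22-fold, from 4.47 and 4.53 CPM to 17.8 and 20.3 CPM, and FGF18 7.83-fold from at most 0.326 CPM. Of the receptors, 3 of 5 fell: FGFR3 from 20 and 18.4 CPM to 5.89 and 5.60 CPM (3.33-fold), FGFR4 2.08-fold, and FGFR1 1.29-fold with a call lost in each fit that left out 1 of the 4 libraries (adjusted p of 0.072 to 0.18). FGF2, the ligand on which these cells are maintained, was not called at 0.28 ± 0.15, nor were FGFR2 (0.14 ± 0.19) and FGFRL1 (-0.24 ± 0.19). The other falls were in ligand-type members. FGF11 fell 2.37-fold, from 50.8 and 51.0 CPM to 20.7 and 22.3 CPM, and FGF13 1.40-fold. FGF16, at 0.402 CPM or less in each library, was at -2.31 ± 0.82 (log2), a call lost with any 1 of the 4 libraries left out (adjusted p of 0.095 to 0.29). The rises numbered 2 without the first 0 h library, and the falls 3 without the second 0 h library or either 8 h library and 2 with library totals.

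The feedback genes of the ERK kinases, which FGF activates, were also mixed, 4 of 18 higher and 4 lower, with 2 lower without the second 8 h library. DUSP6, a phosphatase that inactivates ERK, fell from 281 and 294 CPM to 59.5 and 57.5 CPM, 4.91-fold (adjusted p = 2.12e-07), and SPRY1, an inhibitor of receptor kinases, fell 3.26-fold. SPRY2, SPRY4, SPRED1 and ETV4, which respond to the same kinases, differed by -0.31 to 0.19 (log2) and were not called. CCND1, the cyclin of early G1 phase and a target of both WNT and ERK, rose 4.09-fold, from 78.4 and 79.0 CPM to 351 and 293 CPM.

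NOTCH genes fell in 7 cases of 20 and rose in 1, with 4 falls without the second 8 h library and 3 with library totals. HES1, the best known target, went from 30.4 and 34.9 CPM to 11 and 7.54 CPM, 3.49-fold lower (adjusted p = 6.53e-07). The receptor NOTCH1 fell 1.67-fold, the ligand DLL3 2.31-fold, and HES6, which opposes HES1, 2.26-fold. The rise was DLL4, with 2 counts over both 0 h libraries and 45 at 8 h, a ratio of 21.2 (95% counting interval 5.54 to 181).

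Of the retinoic acid pathway, 4 of 20 genes rose and 4 fell, with 2 lower without the first 8 h library. CYP26A1, the enzyme that degrades retinoic acid, fell from 5.53 and 4.83 CPM to 0.530 and 0.190 CPM, 12.8-fold (-3.67 on the log2 scale, and -4.72 without the first 8 h library), and the receptor RARG fell 2.37-fold. CRABP2, which carries retinoic acid to its receptors, rose 1.64-fold, from 41.4 and 45.5 CPM to 73.6 and 68.8 CPM. The medium at 8 h lacked vitamin A, and its part in these values was not tested. In the Hedgehog list 1 of 13 genes rose and 2 fell, 23.1% called against 20.9% over all genes and 27.6% over protein-coding genes. Fewer fell without the first 0 h library or without the second 8 h library.

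Outside these pathways, several of the largest rises were in genes with other roles. GAD1, the enzyme that makes the transmitter GABA, was almost absent at 0 h (0.251 and 0.148 CPM) and reached 42.3 and 35.1 CPM, 202-fold higher (adjusted p = 3.88e-18). TMEM132C, a membrane protein, rose 73.1-fold, from 0.201 and 0.474 CPM to 24.3 and 30.6 CPM (6.19 on the log2 scale, and 7.05 without the second 0 h library). F2RL1, a receptor that proteases activate, rose from 38.7 and 33.7 CPM to 371 and 348 CPM, 9.96-fold with a standard error of 0.13 on the log2 scale. Among abundant genes TUBB2A, a beta-tubulin, rose 5.63-fold, from 165 and 179 CPM to 925 and 1013 CPM, among the largest gains in CPM of any gene that at least doubled. ZEB2, a repressor of E-cadherin that is active in neural crest, rose 23-fold, from 2.31 and 1.78 CPM to 52.4 and 39.7 CPM.

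Large falls outside the pathways included DGKK, a diacylglycerol kinase, from 54.9 and 56.1 CPM to 5.5 and 5.12 CPM (10.4-fold, adjusted p = 2.76e-14). SLC1A1, a glutamate transporter, fell 8.29-fold and YPEL2 9.08-fold. Among abundant genes, TERF1, a telomere-binding protein with high expression in embryonic stem cells, fell from 448 and 476 CPM to 168 and 183 CPM (2.63-fold). KDM5B, a histone H3K4 demethylase, fell from 617 and 600 CPM to 254 and 255 CPM (2.39-fold), and RBMX, an RNA-binding splicing factor, from 613 and 635 CPM to 306 and 303 CPM. In all of these the 2 groups did not overlap, as was so for 62.8% of all tested genes.

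Long noncoding RNAs were named by the same rule. NEAT1, the scaffold of nuclear paraspeckles, rose 4.38-fold, from 7.99 and 4.15 CPM to 26.6 and 25.4 CPM. LINC00467 rose 3.53-fold, and LINC01124 rose from 3 counts over both 0 h libraries to 446 at 8 h, a ratio of 140 (95% counting interval 47.7 to 682). LINC01896, PCAT14, FTX and DLEU2 rose 2.54-fold to 3.19-fold. The largest fall among them was MIR210HG, the host transcript of miR-210, from 14.9 and 16.8 CPM to 0.809 and 0.664 CPM. LINC00678, abundant at the start, fell 5.03-fold, from 133 and 139 CPM to 23.0 and 31.3 CPM, and LINC00599 fell 4.98-fold. LINC00458, LINC01194, OLMALINC, LNCPRESS2 and FEZF1-AS1 fell 2.91-fold to 3.33-fold.

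Immediate early genes code for transcription factors that respond to growth factors and stress within minutes. At 8 h 11 of 19 were higher and 1 lower (median 1.02), against 9.2% higher over all genes. Without the first 8 h library, which was the higher of the 2 for EGR3, FOS and ATF3, 7 were higher and 2 lower. EGR3 rose from 0.101 and 0.148 CPM to 4.05 and 1.57 CPM (4.41 on the log2 scale, and 3.54 without the first 8 h library), and EGR4 from no count to 0.754 and 0.759 CPM (at least 13.5-fold). ATF3, a stress-induced factor, rose 3.78-fold, from 5.93 and 9.48 CPM to 36.0 and 22.9 CPM, and JUN, whose protein GSK3 marks for turnover, rose 3.26-fold, from 5.73 and 5.83 CPM to 20.8 and 16.9 CPM. SRF, the factor that drives many genes of this list, rose 2.38-fold. IER2 and DUSP1 differed by 0.32 and 0.44 (log2) and were not called.

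Targets of YAP and TEAD, which sense contact and tension, had 7 of 19 members higher (3 with library totals) and 1 lower (none without the first 0 h library). AMOTL2, a feedback inhibitor of YAP, rose 2.80-fold, from 44.3 and 41.7 CPM to 126 and 115 CPM, and NUAK2 and PTPN14 rose 2.30-fold and 2.08-fold. The standard target genes were not called: CTGF differed by -0.32 ± 0.16 and CYR61 by -0.01 ± 0.23.

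**Figure D3:**
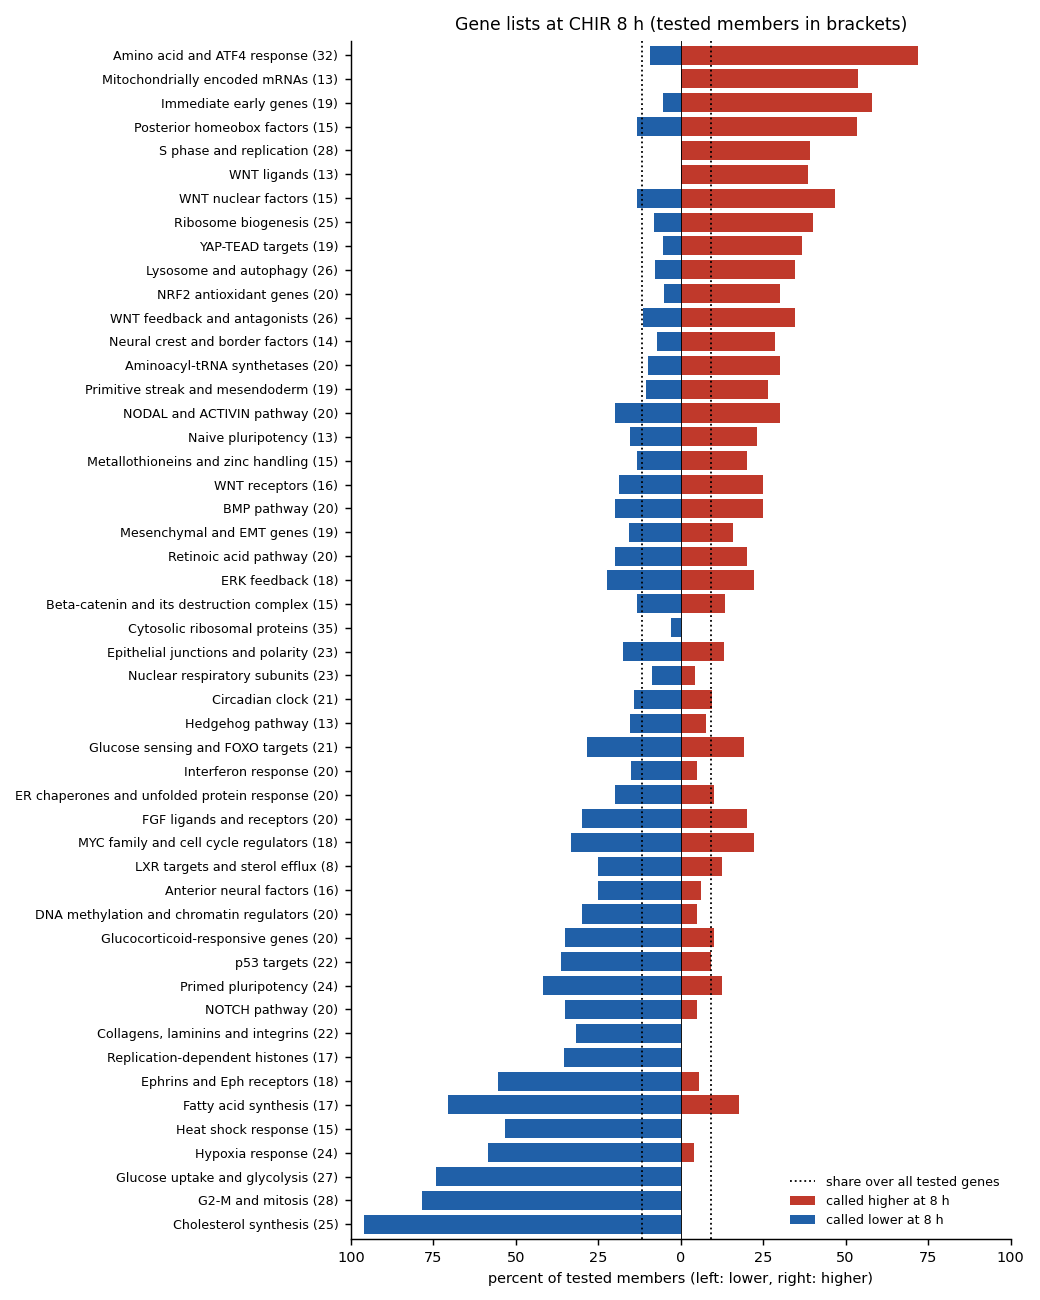
Each row is a gene list with its number of tested members in brackets; bars to the right give the percentage of members called higher at 8 h and bars to the left the percentage called lower, with dotted lines at the shares over all tested genes (9.2% and 11.7%). The sterol list lies almost wholly to the left (24 of 25 members), the amino acid list mostly to the right (23 of 32), and the ribosomal protein list has almost no bar (1 of 35).

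Sterol synthesis was the most uniform of the 50 lists described. Cells make cholesterol from acetyl-CoA by a chain of enzymes whose genes are driven by SREBP factors when sterols are scarce. Of 25 genes, 24 fell and none rose, and NSDHL was not called. With library totals 8 fell. The median change was -0.85 (log2). HMGCS1, which makes the precursor HMG-CoA, fell from 456 and 427 CPM to 121 and 142 CPM, 3.37-fold (adjusted p = 1.81e-11). INSIG1, which holds SREBP in the endoplasmic reticulum, fell from 107 and 98 CPM to 35.3 and 36.4 CPM, 2.86-fold. IDI1 and SQLE, an isomerase early in the chain and an oxidase late in it, fell by 1.18 and 1.03 on the log2 scale.

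Fatty acid synthesis fell as a group as well, 12 of 17 members lower and 3 higher, with 7 lower without the first 8 h library, 1 lower with library totals, and 1 higher without either 0 h library or the second 8 h library. SCD, which desaturates fatty acids, went from 1584 and 1484 CPM to 910 and 998 CPM (1.61-fold lower), and ACSS2, which makes acetyl-CoA from acetate, fell 2.90-fold. SREBF1 stood apart from its targets: it rose from 37.0 and 27.0 CPM to 67.9 and 88.2 CPM, 2.45-fold (adjusted p = 1.19e-05). SREBF2, the sterol-specific family member, was 1.48-fold lower, with a call lost without the first 0 h library (0.08) or the first 8 h library (0.15). The sterol element TCACNCCAC was found in 1 of 18 promoters of the sterol list (SREBF2) and in none of 15 of the fatty acid list, against 1.15% of all promoters.

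The amino acid response rose. In this pathway a shortage of amino acids or other stress raises translation of the factor ATF4, which then drives amino acid synthesis and uptake. Of 32 genes 23 rose and 3 fell, with a median change of 0.95 (log2). ATF4 itself rose from 213 and 207 CPM to 381 and 394 CPM, 1.84-fold (adjusted p = 6.43e-07). SLC7A11, the cystine importer, rose 17.5-fold, from 12.8 and 13.6 CPM to 268 and 195 CPM. DDIT3, the stress factor also called CHOP, rose from 1.56 and 1.54 CPM to 13.8 and 11.9 CPM (8.29-fold), and CHAC1, which degrades glutathione, from 6.99 and 5.06 CPM to 38.7 and 32.0 CPM (5.93-fold).

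Enzymes of amino acid synthesis were less uniform. PSPH, the last step of serine synthesis, rose 2.57-fold, PSAT1, the step before, 1.48-fold, and ASNS, which makes asparagine, 1.39-fold from 160 and 159 CPM to 217 and 225 CPM. PHGDH, the first step of serine synthesis, differed by 0.03 ± 0.11 (log2) and was not called. The neutral amino acid transporters SLC7A5 and SLC3A2, which form a dimer, rose 3.72-fold and 2.01-fold. FGF21, a hormone induced by the same factor, had 3 counts over both 0 h libraries and 62 at 8 h, a ratio of 19.5 (95% counting interval 6.37 to 97.1). The members that fell included DDIT4 (5.27-fold, also on the hypoxia list) and CBS, whose call was lost without the first 0 h library (0.11) or the first 8 h library (0.14).

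The ATF4 composite element was searched as TGATGNAA on both strands. It was present in 5 of the 26 promoters found for this list (19.2%), against 3.67% of all promoters. The 5 genes are ASNS, CHAC1, FGF21, SLC3A2 and SLC7A1, each of which rose. Stretches from 3 of them are shown, with the match in capitals, because they cover a small, a middle and a large rise. The coordinates are chr19:48755420-48755523 on the plus strand for FGF21, chr7:97872419-97872526 on the minus strand for ASNS, and chr15:40953221-40953319 on the plus strand for CHAC1, all GRCh38.p14.
FGF21: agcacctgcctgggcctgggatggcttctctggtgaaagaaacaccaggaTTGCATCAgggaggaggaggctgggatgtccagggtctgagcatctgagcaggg
ASNS: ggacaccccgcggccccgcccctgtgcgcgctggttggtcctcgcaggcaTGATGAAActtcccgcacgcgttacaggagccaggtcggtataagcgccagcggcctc
CHAC1: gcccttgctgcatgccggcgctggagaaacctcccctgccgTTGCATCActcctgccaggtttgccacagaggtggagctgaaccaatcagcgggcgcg

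Of 20 aminoacyl-tRNA synthetases, which ATF4 also drives, 6 rose (3 without the first 0 h library, 2 with library totals) and 2 fell (none with any 1 of the 4 libraries left out). CARS rose 2.53-fold and GARS 2.03-fold, from 152 and 156 CPM to 324 and 302 CPM. Genes of the antioxidant factor NRF2 had 6 of 20 members higher (2 with library totals) and 1 lower, among them SLC7A11, which both lists hold, and HMOX1, which degrades heme, 2.47-fold higher. Of the NRF2 list 35% was called, against 27.6% over protein-coding genes. The unfolded protein response of the endoplasmic reticulum did not move as a group. Of its 20 genes 2 were higher and 4 lower, or 30% against 27.6% over protein-coding genes. The falls numbered 2 without the second 0 h library and 1 without the first 8 h library. Its main chaperone HSPA5 fell 1.63-fold, from 369 and 343 CPM to 199 and 237 CPM, and HERPUD1 rose 2.43-fold.

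Genes that respond to low oxygen fell, 14 of 24 lower and 1 higher (median -1.28), and so did 20 of 27 genes of glucose uptake and glycolysis, with none higher (median -0.52). With library totals 13 and 4 fell. STC1, a secreted hormone, fell 11.2-fold, from 68.7 and 64.7 CPM to 6.76 and 4.98 CPM. EGLN1, the oxygen-sensing enzyme that marks HIF for degradation, fell 4.33-fold, from 64.3 and 57.5 CPM to 14.5 and 13.5 CPM, and BNIP3, a mitophagy receptor, fell 2.95-fold. INSIG2, a relative of INSIG1, fell 8.03-fold, from 61.5 and 54.8 CPM to 7.29 and 7.16 CPM. The fall did not extend to every standard target: VEGFA was at 32.1 and 31.4 CPM at 0 h and 38.2 CPM in each library at 8 h, CA9 did not exceed 0.553 CPM, and neither was called.

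In glycolysis, HK2, the inducible hexokinase, fell most steeply among the enzymes of the main path, from 304 and 289 CPM to 44.0 and 45.5 CPM (6.62-fold, adjusted p = 3.88e-13). PFKFB4, which sets the level of the activator of phosphofructokinase, fell 7.98-fold, and SLC16A3, the lactate exporter, 7.98-fold. PGK1 fell from 1704 and 1645 CPM to 840 and 829 CPM (2.01-fold) and LDHA, which makes lactate, from 1269 and 1253 CPM to 641 and 673 CPM (1.92-fold). The glucose transporter SLC2A1 fell 2.13-fold, while SLC2A3, the other main glucose transporter of these cells, was at 1119 and 1078 CPM before and 1176 and 1125 CPM after and was not called.

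The hypoxia element core ACGTG was found in 11 of 20 promoters of the hypoxia list (55%) and in 10 of 24 of the glycolysis list (41.7%), against 21.6% of all promoters. The motif is short, and a CACGTG run matches on both strands. Stretches of 3 promoters with a match are shown for genes that fell, with the matches in capitals. They are chr11:568573-568677 on the minus strand (MIR210HG), chr11:18394440-18394544 on the plus strand (LDHA, with 3 of the 5 matches of its window) and chr1:231422288-231422350 on the minus strand (EGLN1), in GRCh38.p14.
MIR210HG: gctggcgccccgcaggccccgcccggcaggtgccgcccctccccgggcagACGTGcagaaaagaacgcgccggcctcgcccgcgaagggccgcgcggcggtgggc
LDHA: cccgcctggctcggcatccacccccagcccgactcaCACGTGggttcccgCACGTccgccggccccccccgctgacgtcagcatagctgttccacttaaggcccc
EGLN1: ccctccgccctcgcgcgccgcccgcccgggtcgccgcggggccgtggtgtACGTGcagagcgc

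Of genes that sense glucose or answer to FOXO factors, 4 of 21 rose (2 without either 0 h library or the first 8 h library) and 6 fell (2 with library totals). FOXO1 fell 3.64-fold, from 84.1 and 75.0 CPM to 19.2 and 24.7 CPM. ARRDC4 and ARRDC3, alpha-arrestins related to TXNIP, rose 2.27-fold and 2.38-fold, and TXNIP, the best known glucose-induced gene, was at 43.4 and 47.5 CPM before and 68.0 and 49.7 CPM after, not called.

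**Figure D4:**
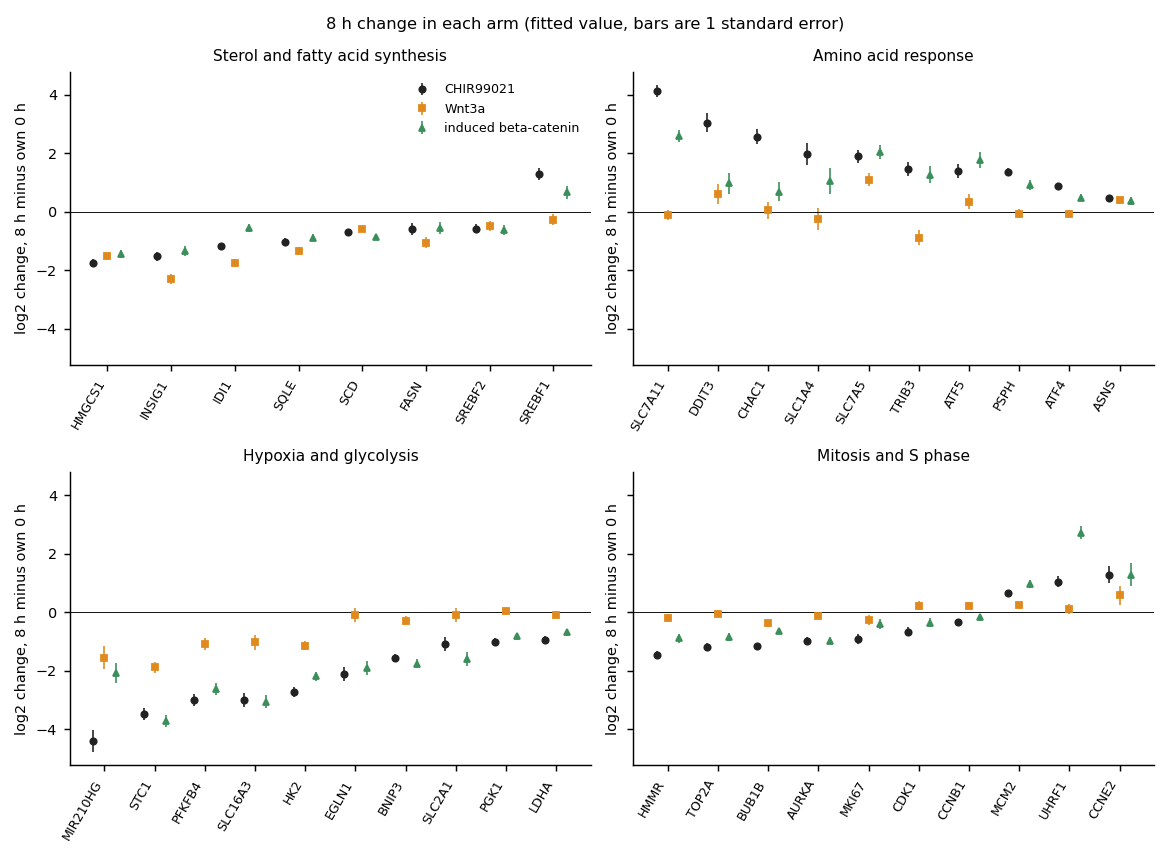
Points are fitted log2 changes from each arm's own 0 h to its 8 h, with bars of 1 standard error: circles for CHIR99021, squares for Wnt3a and triangles for induced beta-catenin. Sterol genes such as HMGCS1 lie low in all 3 arms (-1.75, -1.52 and -1.43), while for SLC7A11 (4.13 with CHIR99021, -0.11 with Wnt3a) and EGLN1 (-2.12 and -0.10) the square lies near 0 and the circle does not.

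Genes of mitosis fell together. Of 28 genes of G2 and M phase, 22 fell and none rose, and every fitted change was below 0 (-1.45 to -0.13, median -0.59). With library totals 5 fell. HMMR, a spindle protein, fell from 107 and 110 CPM to 35.3 and 44.0 CPM (2.74-fold, adjusted p = 6.78e-09), TOP2A, which untangles chromosomes, from 630 and 669 CPM to 285 and 291 CPM (2.26-fold), and BUB1B, of the spindle checkpoint, 2.22-fold. PLK1 and AURKA, kinases that start mitosis, fell 1.77-fold and 1.96-fold. CCNB1, the mitotic cyclin, was 1.27-fold lower, from 209 and 215 CPM to 161 and 173 CPM, a call lost in each fit that left out 1 of the 4 libraries (adjusted p of 0.07 to 0.23).

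Of 28 genes of S phase 11 rose and none fell (median 0.31). Without the first 0 h library or the first 8 h library 6 rose, and with library totals 2. UHRF1, which maintains DNA methylation at replication forks, rose 2.07-fold, from 44.4 and 48.0 CPM to 99.3 and 92.0 CPM. CCNE2, a cyclin of S phase entry, rose 2.43-fold, CDC6, which loads the replicative helicase, 1.61-fold, and MCM2, part of that helicase, 1.56-fold. Of the replication-dependent histones 35.3% were called, against 27.6% over protein-coding genes. The replication-dependent histones did not share this direction: 6 of 17 fell, 2 without the second 0 h library or the first 8 h library and none with library totals, and none rose.

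The CHR element TTTGAA, known from promoters of mitotic genes, occurred on either strand in 15 of the 23 promoters found for the G2 and M phase list (65.2%), in 1 of 24 for the S phase list (4.17%), and in 15.4% of all promoters. It overlaps in part with the reverse of the TCF and LEF motif. In 7 promoters of genes that fell, a match begins 18 to 29 bases before the annotated start. In 5 of them the 50 bases before it are shown to let a reader compare them, with the match in capitals. The other 2 are those of MKI67, the proliferation marker Ki-67, and of the spindle motor KIF11, where the match is on the opposite strand. The stretches lie on the plus strand of GRCh38.p14 at chr16:23678810-23678888 (PLK1), chr15:59105067-59105145 (CCNB2), chr15:40160996-40161068 (BUB1B), chr5:163460554-163460631 (HMMR) and chr2:26785988-26786055 (CENPA), and HMMR has the motif in 2 adjoining copies. CCNB2, a cyclin of mitosis, fell 1.31-fold, a call lost without the first 8 h library (adjusted p = 0.068), and CENPA, the centromeric histone, fell 1.79-fold.
PLK1: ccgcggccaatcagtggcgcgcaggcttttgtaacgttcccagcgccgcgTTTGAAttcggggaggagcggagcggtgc
CCNB2: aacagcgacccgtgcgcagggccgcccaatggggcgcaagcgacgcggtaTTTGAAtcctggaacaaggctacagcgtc
BUB1B: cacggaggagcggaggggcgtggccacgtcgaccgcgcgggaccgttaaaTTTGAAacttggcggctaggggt
HMMR: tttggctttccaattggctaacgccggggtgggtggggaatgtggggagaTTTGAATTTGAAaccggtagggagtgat
CENPA: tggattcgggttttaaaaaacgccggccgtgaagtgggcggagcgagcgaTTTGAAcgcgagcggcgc

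Of the regulators of the cycle, 4 of 18 rose (2 without the second 0 h library or the first 8 h library) and 6 fell (2 with library totals). MYC, often described as a WNT target, fell 1.88-fold, from 54.3 and 48.7 CPM to 28.4 and 26.3 CPM (adjusted p = 0.00221). MYCN, its relative in early embryos, fell 2.11-fold, from 85.8 and 87.6 CPM to 43.2 and 38.9 CPM, and MAX, the partner of both, rose 1.86-fold. CDKN1A, the inhibitor of cyclin-dependent kinases that p53 induces, fell 2.59-fold, from 17.0 and 20.2 CPM to 7.54 and 6.83 CPM. Among the 22 targets of p53, 8 fell (5 without the second 0 h library or the first 8 h library, 1 with library totals) and 2 rose (1 without either 0 h library, none without the first 8 h library). MDM2 was not called at 0.32 ± 0.13.

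Of 15 heat shock genes 8 fell and none rose (median -0.41), 5 without the second 0 h library or the first 8 h library. With library totals none was called, and the median was -0.321. The constitutive chaperone HSPA8 fell from 2840 and 2954 CPM to 1829 and 1797 CPM, 1.60-fold, HSP90AA1 1.67-fold and the inducible HSPA1A 1.85-fold. Lysosome and autophagy genes rose in 9 cases of 26 and fell in 2. The rises numbered 5 without the second 0 h library and 2 with library totals, and the falls were 1 or none with any 1 of the 4 libraries left out. SQSTM1, the autophagy receptor p62, rose 2.95-fold, from 72.5 and 80.6 CPM to 257 and 195 CPM, and CTSB, a lysosomal protease, 1.95-fold.

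Of the ribosomal protein genes, 1 of 35 fell, with a median of -0.17 (log2). The count was none without either 0 h library or the first 8 h library, 3 with DESeq2, 7 with only the arms compared in the fit and 13 with only the groups compared. Genes of ribosome assembly rose in 10 cases of 25 and fell in 2, the falls being 1 or none with any 1 of the 4 libraries left out. The rises numbered 5 without the first 0 h library and 4 without the second 0 h library or the second 8 h library, and none rose with library totals. UBTF, which opens ribosomal DNA for transcription, rose 1.81-fold, from 70.4 and 68.3 CPM to 123 and 128 CPM.

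Mitochondrially encoded mRNAs were higher at 8 h in each of the 13 cases (0.69 to 1.58 on the log2 scale), and 7 were called, or 1 to 2 with any 1 of the 4 libraries left out. MT-CO1, a subunit of cytochrome oxidase, went from 574 and 504 CPM to 1179 and 1205 CPM (2.21-fold, adjusted p = 0.0131, or 0.053 to 0.11 with 1 library left out). The 2 mitochondrial ribosomal RNAs moved with them, from 7.52% and 7.84% of all counts at 0 h to 14.3% and 11.4% at 8 h, and their part in this result was not tested. Respiratory subunits encoded in the nucleus did not share it, with 1 of 23 higher and 2 lower (13% called against 20.9% over all genes). Fewer fell with any 1 of the 4 libraries left out.

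Of 15 metallothioneins and genes of zinc handling 3 rose and 2 fell (33.3% against 20.9% over all genes and 27.6% over protein-coding genes). The median change was -0.01. SLC30A1, which exports zinc from the cell, rose 3.73-fold, from 18.8 and 21.7 CPM to 96.6 and 54.3 CPM, and SLC30A2, an exporter into vesicles, 4.98-fold from 0.352 and 0.355 CPM. MT1X, a metallothionein that binds zinc, fell 2.44-fold, from 83.4 and 77.4 CPM to 33.6 and 32.2 CPM, while MT1E, MT1F, MT1G, MT1H and MT2A differed by -0.31 to -0.01 (log2) and were not called. The zinc importer SLC39A10 fell 1.89-fold, from 470 and 497 CPM to 223 and 290 CPM.

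Genes of ephrin contact signalling fell, with 10 of 18 genes lower and 1 higher (median -0.68; 3 falls with library totals). EPHB3, a receptor that WNT is known to raise in the gut, fell 5.37-fold, from 3.02 and 4.23 CPM to 0.586 and 0.806 CPM. EPHA7 fell 3.03-fold and EFNA3, a ligand, 2.85-fold. The rise was EFNB2, a ligand of the EPHB receptors, from 13.7 and 14.7 CPM to 45.1 and 35.5 CPM (2.84-fold, adjusted p = 8.80e-08).

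Adhesion genes moved both ways. The share called was 30.4% for epithelial junctions and 31.8% for collagens, laminins and integrins, against 27.6% over protein-coding genes. Of 23 genes of epithelial junctions 3 rose and 4 fell, the falls being 1 or 2 with any 1 of the 4 libraries left out. CDH1, E-cadherin, was at 263 and 221 CPM before and 236 CPM in each library after, and CDH2, N-cadherin, differed by -0.19 ± 0.12. Neither was called. DSP, the desmosome protein desmoplakin, rose 3.39-fold, from 84.4 and 89.4 CPM to 328 and 260 CPM. Collagens, laminins and integrins had 7 of 22 members lower and none higher, 4 without the second 0 h library and none with library totals, with ITGAV, an integrin subunit, 1.66-fold lower.

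Among regulators of DNA methylation and chromatin, 6 of 20 fell (2 with library totals) and 1 rose. That is 35% called, against 27.6% over protein-coding genes. DNMT3B, the de novo methyltransferase of early embryos, fell from 847 and 862 CPM to 468 and 532 CPM (1.71-fold, adjusted p = 7.89e-07), and TET1, which removes methylation, fell 1.80-fold from 138 CPM in each 0 h library. DNMT3A was not called at 0.02 ± 0.14. CBX7, a Polycomb subunit, fell 2.70-fold.

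Glucocorticoid-responsive genes, which respond to the cortisol receptor, were called in 45% of cases, against 20.9% over all genes and 27.6% over protein-coding genes. They had 2 of 20 higher (1 without either 0 h library or the first 8 h library) and 7 lower (4 without the second 0 h library or either 8 h library, 2 with library totals), with ERRFI1, a feedback inhibitor of EGF receptors, 3.99-fold lower. TSC22D3, another glucocorticoid-responsive gene, rose 2.88-fold, from 11.3 and 10.7 CPM to 36.1 and 26.8 CPM. Of the remaining lists, 20% to 37.5% of members were called. Clock genes had 2 of 21 higher (1 with any 1 of the 4 libraries left out) and 3 lower (1 without the second 8 h library). Interferon genes had 1 of 20 higher (2 without the second 8 h library) and 3 lower, and mesenchymal genes 3 of 19 in each direction. LXR targets had 1 of 8 higher (none without the first 0 h or first 8 h library) and 2 lower (1 without the second of either). Neural crest and border factors had 4 of 14 higher and 1 lower, with a median change of 1.30. PAX3, one of them, rose from 0.0503 and 0.533 CPM to 2.43 and 2.42 CPM, its fitted change being 2.81 with all libraries and 5.44 without the second 0 h library.

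The other arms address which of these changes other ways of activating the pathway share. With Wnt3a 839 genes had changed at 8 h (3.45%, 553 higher and 286 lower), and with induced beta-catenin 4549 (18.7%, 2602 higher and 1947 lower). Each arm has its own 0 h libraries, and these were not alike: EGLN1 was at 64.3 and 57.5 CPM in the CHIR arm, 7.76 and 20.9 CPM in the Wnt3a arm and 60.9 and 99.2 CPM in the bcat arm. A difference between changes can therefore lie in the 0 h or in the 8 h levels, and both are given below for part of the genes named. Of the genes called with CHIR99021, 561 were called in the same direction with Wnt3a, which is 11.1% of the CHIR99021 calls and 66.9% of the Wnt3a calls. With induced beta-catenin 2380 were, which is 46.9% of the CHIR99021 calls and 52.3% of the bcat calls. In all 3 arms 446 genes moved alike, 281 higher and 165 lower. Genes called in opposite directions numbered 20 with Wnt3a and 56 with induced beta-catenin. The first 0 h library held 2.45 M counts in the Wnt3a arm and 4.44 M in the bcat arm, against 21.7 M in the CHIR arm. What depth did to these counts of calls was not tested, and a gene not called in an arm is not shown to be unchanged there.

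The difference between 2 arms was tested as a difference of their changes. It was called for 1130 genes against Wnt3a (4.65%), where 333 changes were higher with CHIR99021 and 797 lower, and for 656 genes against induced beta-catenin (2.7%), 150 higher and 506 lower. These splits depend on the scaling and on the other arms' libraries. The share higher with CHIR99021 was 29.47% against Wnt3a, 46.97% with DESeq2, and 51.88% of 798 genes without 4 libraries that stood apart in depth or in ribosomal RNA. Those are the first 0 h libraries of the Wnt3a arm (2.45 M counts) and of the bcat arm (4.44 M), the first bcat library at 24 h and the second at 48 h. Against induced beta-catenin the share was 22.87%, 46.28% with DESeq2, and 37.8% of 336 genes without those 4. Library totals alone left 28 and 22 genes.

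Leaving out 1 library of the CHIR or Wnt3a groups gave 542 to 1556 genes for the difference from Wnt3a. It was 659 without the first CHIR 0 h library, 542 without the second, 597 without the first CHIR 8 h library, and 635 and 616 without the first and second Wnt3a 8 h libraries. For the difference from induced beta-catenin the range was 239 to 581. It was 306 and 279 without the first and second CHIR 0 h libraries, 239 and 400 without the first and second CHIR 8 h libraries, and 334 and 320 without the first bcat 0 h and 8 h libraries.

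AXIN2, LEF1 and SP5 rose in all 3 arms. AXIN2 rose by 3.30 with CHIR99021, 1.58 with Wnt3a and 2.68 with induced beta-catenin (log2), and its rise was larger with CHIR99021 than with Wnt3a by 1.72 ± 0.27 (adjusted p = 0.000282) but not called against bcat (adjusted p = 0.273). For LEF1 and SP5 neither difference was called, with LEF1 at 5.52, 5.02 and 4.78 in that order. FST and DACT1 rose in each arm and more with CHIR99021 than in either other arm, DACT1 by 2.05 ± 0.23 and 1.58 on the log2 scale. At 0 h DACT1 was at 1.26 and 1.75 CPM in the CHIR arm, 2.91 and 2.74 CPM in the Wnt3a arm and 2.65 and 3.21 CPM in the bcat arm. At 8 h it was at 78.0 and 91.0, 35.4 and 37.3, and 55.8 and 54.6 CPM in that order, so the arms differed at both times. APCDD1 rose more with CHIR99021 than with induced beta-catenin, by 1.96, and its bcat libraries were at 2.94 and 2.89 CPM at 0 h and at 8.68 and 7.07 CPM at 8 h. RNF43 rose more by 2.18. Its 8 h levels overlapped (35.2 and 34.2 CPM with CHIR99021, 39.6 and 25.3 CPM with induced beta-catenin), and the arms were apart at 0 h (2.87 and 1.92 against 4.41 and 13.2 CPM). The call for RNF43 was lost without the second CHIR 0 h library (adjusted p = 0.109), the first CHIR 8 h library (0.0514) or the second bcat 0 h library (a difference of 0.992, adjusted p = 0.544).

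Metabolic genes divided the arms by list. In the sterol list 24 genes fell with CHIR99021, 18 with Wnt3a and 20 with induced beta-catenin, and HMGCS1 fell by 1.75, 1.52 and 1.43 on the log2 scale. In the amino acid list 23 genes rose with CHIR99021, 2 with Wnt3a and 15 with induced beta-catenin, and the change differed from that with Wnt3a in 16 of the 32. SLC7A11 changed by 4.13 with CHIR99021, -0.11 with Wnt3a and 2.60 with induced beta-catenin, each difference being called (4.24 ± 0.26 and 1.53). It started at 12.8 and 13.6 CPM in the CHIR arm but at 66.6 and 65.2 CPM in the Wnt3a arm, and at 8 h stood at 268 and 195 against 56.4 and 65.7 CPM, so the arms differed at both times, in opposite directions. TRIB3, a pseudokinase induced by ATF4, rose by 1.46 with CHIR99021 and was at -0.88 with Wnt3a, from 7.76 and 15.3 CPM to 6.85 and 6.97 CPM.

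In the hypoxia list 14 genes fell with CHIR99021, 4 with Wnt3a and 16 with induced beta-catenin, and in 10 of the 24 the change was lower with CHIR99021 than with Wnt3a. EGLN1 fell by 2.12 with CHIR99021 and was at -0.10 with Wnt3a (difference -2.02 ± 0.34, adjusted p = 0.000774). At 8 h it stood at 14.5 and 13.5 CPM in the CHIR arm and 16.9 and 15.1 CPM in the Wnt3a arm, so these arms were further apart at 0 h. PDK1, which shuts pyruvate out of mitochondria, fell by 0.83 with CHIR99021 and rose by 1.17 with Wnt3a, from 113 and 142 CPM to 303 and 279 CPM. Of the glycolysis list, 20 fell with CHIR99021, 4 with Wnt3a and 22 with induced beta-catenin. LDHA fell by 0.94 and PGK1 by 1.00 with CHIR99021, against -0.09 and 0.02 with Wnt3a, and both differences were called. The Wnt3a libraries had less LDHA at 0 h (519 and 693 CPM), and their 8 h levels (590 and 556 CPM) were nearer to those of the CHIR arm. The same was so of PGK1, at 790 and 1050 CPM at 0 h and 972 and 901 CPM at 8 h with Wnt3a.

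Mitotic genes were lower in 22 cases of 28 with CHIR99021, 1 with Wnt3a and 13 with induced beta-catenin, and in 20 of the 28 the change was lower than with Wnt3a. S phase genes were higher in 11 cases with CHIR99021, none with Wnt3a and 20 with induced beta-catenin, with medians of 0.31, 0.18 and 0.85. The change differed from that with Wnt3a in 1 of the 28 and was smaller than with induced beta-catenin in 8. UHRF1 rose by 1.05 with CHIR99021 and 2.72 with induced beta-catenin, a difference of -1.67 (adjusted p = 0.000615), and started lower in the bcat arm (12.9 and 15.4 CPM) to reach 100 and 90.8 CPM. MYC fell by 0.91 with CHIR99021 and rose by 0.86 with Wnt3a, a difference of -1.77 ± 0.31 (adjusted p = 0.000772). Its Wnt3a libraries went from 25.2 and 36.9 CPM to 61.9 and 55.9 CPM. MYCN fell by 1.08 with CHIR99021 and rose by 0.58 with induced beta-catenin, a difference of -1.65, the bcat libraries going from 27.1 and 27.8 CPM to 42.0 and 39.8 CPM.

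Signalling genes that differed between the arms included SPRY1, which fell by 1.70 with CHIR99021 and was at 0.42 with Wnt3a (difference -2.13 ± 0.29), and FGFR3, which fell by 1.74 with CHIR99021 and rose by 0.81 with induced beta-catenin (difference -2.54). ID3, a BMP target, was at -0.16 with CHIR99021 and rose by 0.60 and 2.02 in the Wnt3a and bcat arms, and both differences were called (-0.76 and -2.18). At 0 h ID3 was at 86.9 and 90.9 CPM in the CHIR arm, 29.8 and 36.7 CPM in the Wnt3a arm and 8.23 and 9.95 CPM in the bcat arm. At 8 h it was still highest in the CHIR arm, at 85.6 and 73.6 CPM. The Wnt3a arm then stood at 52.4 and 51.9 CPM and the bcat arm at 39.0 and 36.6 CPM. In the immediate early list 11 genes rose with CHIR99021, none with Wnt3a and 4 with induced beta-catenin, while the change itself was larger with CHIR99021 in 3 of the 19 against Wnt3a and in 2 against induced beta-catenin. ATF3 and JUN rose more with CHIR99021 than in either other arm, ATF3 by 1.35 and 1.63, JUN by 1.36 and 1.40. BCL2L11, which codes for the cell death protein BIM, rose by 1.80 with CHIR99021 and fell by 0.58 with induced beta-catenin. It went from 12.7 and 13.4 CPM to 46.7 and 44.2 CPM in the CHIR arm. In the bcat arm it went from 34.4 and 29.7 CPM to 21.9 and 20.5 CPM. CTNNB1 read 2.00 in the bcat arm, whose transgene carries that sequence, and -0.43 here.

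**Figure D5:**
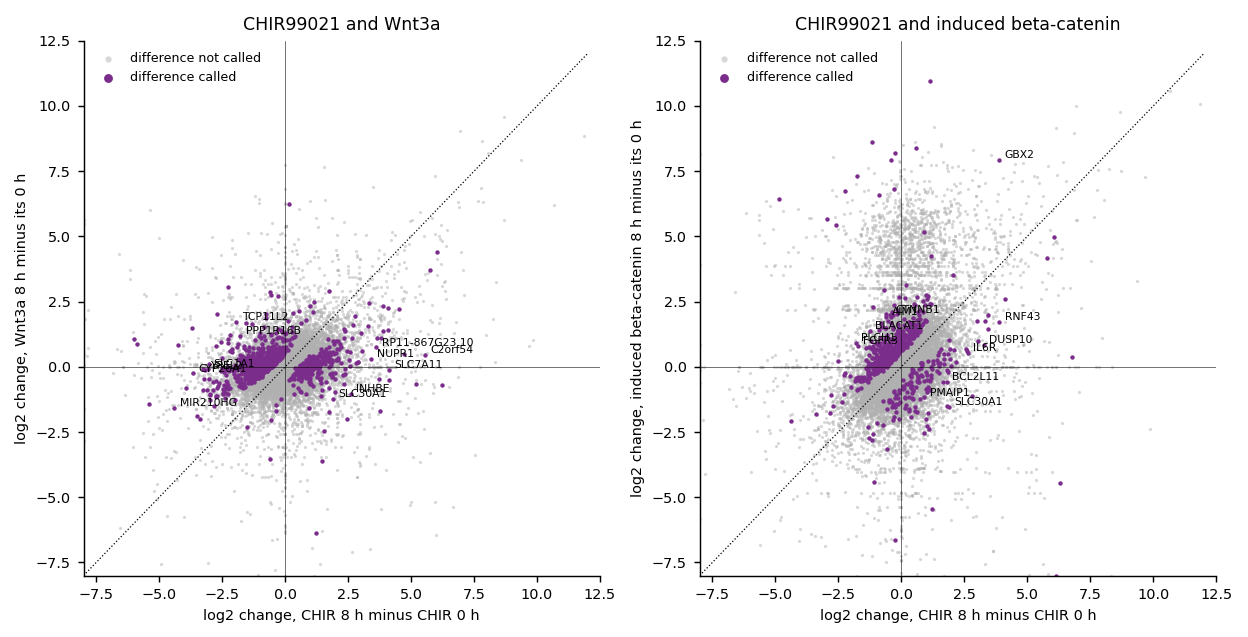
Each point is a tested gene, with its fitted log2 change under CHIR99021 on the horizontal axis and under Wnt3a (left) or induced beta-catenin (right) on the vertical axis. A dotted line marks equal change, and points are purple where the difference of the changes was called. Genes beyond the drawn range are placed at its ends. The purple points lie on both sides of the line, 797 of 1130 above it in the left panel and 506 of 656 above it in the right panel, which are genes with a lower change under CHIR99021.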

How the data were processed

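RNA was extracted with a column kit and sequenced as stranded total RNA, per the labels' protocols. Abundances came from kallisto 0.43.0, per the submitters' processing notes; the build, annotation and summing of transcripts were not given in the sources used here. The authors deposited kallisto's estimated counts summed per gene, with each library multiplied by 1 constant, which was divided out. After this 74.3% to 77.9% of the low nonzero values in the CHIR 0 h and 8 h libraries lay within 0.1 of a whole number. Higher values were not part of this check, and all values were rounded. Such counts share reads among near-identical copies, so single members of gene families are uncertain.

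One edgeR 4.0.16 model (R 4.3.3) of group means was fitted to 37 libraries, since both Wnt3a 72 h columns are identical and count once, with TMM scaling and 18 residual degrees of freedom. Contrasts were each arm's 8 h minus 0 h and their differences. On data simulated for the CHIR contrast over 24304 genes, 71 of 100 genes changed 2-fold and 90 of 100 changed 4-fold were recovered, with 8 unchanged genes called. The changed genes were drawn from those with a mean above 1 CPM, and no others were changed. The rates therefore do not cover genes with fewer counts or a contrast in which far more genes change. Gene types are those of GENCODE release 29.

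Named genes were, per direction, the 12 largest fold changes at 5 CPM or more, the 8 largest CPM differences of at least 2-fold, 8 long noncoding RNAs, 6 genes per arm that differed most, and 4 called genes of each of 50 lists, beside list members a reader would look for. Some of these genes are not reported here. The members and lists were chosen with earlier results of these data known. Counting intervals and floors cover counting error only. Alternatives were DESeq2 1.42.0, other scalings, filters and sets of libraries, a replicate block, and each replicate left out.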

Additional observations from a re-analysis of the deposited data

Results flagged for a closer look

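The change at 8 h differed between CHIR99021 and Wnt3a for 1130 genes and between CHIR99021 and induced beta-catenin for 656 genes, by the test of the difference in edgeR's quasi-likelihood model with Benjamini-Hochberg adjustment. The genes with the largest differences in each direction are given here as log2 values.

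Larger with CHIR99021 than with Wnt3a were C2orf54 (a difference of 5.10, from 5.57 against 0.47), the cystine importer SLC7A11 (4.24), and INHBE, a beta subunit of the ACTIVIN family (3.64, from 2.61 against -1.03). The zinc exporter SLC30A1 differed by 3.12, the stress-induced NUPR1 by 3.11 (3.41 against 0.30), and the unnamed transcript RP11-867G23.10 by 2.87. Lower with CHIR99021 were TCP11L2 (a difference of -3.66, from -1.93 against 1.72), CYP26A1 (-3.42), YPEL2 (-3.04), SLC1A1 (-2.98), PPP1R16B (-2.95) and MIR210HG (-2.84). For MIR210HG, SLC1A1 and YPEL2 the arms were apart at 0 h. MIR210HG was at 14.9 and 16.8 CPM in the CHIR arm and at 0.97 and 3.52 CPM in the Wnt3a arm at 0 h, and at 0.809 and 0.664 against 1.53 and 0.676 CPM at 8 h. SLC1A1 started at 22.6 and 19.1 against 4.53 and 3.79 CPM and ended at 1.90 and 3.27 against 4.49 and 3.13 CPM. YPEL2 started at 7.54 and 6.40 against 1.29 and 2.38 CPM. CYP26A1 (5.53 and 4.83 against 1.62 and 1.82 CPM) and TCP11L2 (5.28 and 5.39 against 0.647 and 1.06 CPM) were also higher at 0 h in the CHIR arm, and SLC7A11 lower (12.8 and 13.6 against 66.6 and 65.2 CPM). SLC30A1 and PPP1R16B differed more at 8 h, SLC30A1 at 96.6 and 54.3 against 11.6 and 11 CPM and PPP1R16B at 2.37 and 2.89 against 12.4 and 11.8 CPM. The call for C2orf54, which was at 0.101 and 0.118 CPM at 0 h, was lost in 7 of the 8 fits that left out 1 library (adjusted p of 0.0559 to 0.34). That for CYP26A1 was lost without the second CHIR 8 h library (0.0535) or the second Wnt3a 0 h library (0.0921), and that for NUPR1 without the second Wnt3a 0 h library (a difference of 2.108, adjusted p = 0.433).

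Against induced beta-catenin the difference was positive for SLC30A1 (3.42, from 1.90 against -1.52), DUSP10, a phosphatase of stress kinases (2.41, from 3.26 against 0.85), and the cell death gene BCL2L11 (2.37). It was also positive for RNF43 (2.18), the interleukin receptor IL6R (2.11) and PMAIP1, another cell death gene (2.08, from 0.91 against -1.17). It was negative for GBX2 (-4.06, from 3.88 against 7.94), PLCH1 (-2.71), the long noncoding RNA BLACAT1 (-2.63), FGFR3 (-2.54), AIM1 (-2.51) and CTNNB1 (-2.43). The 8 h levels of GBX2 overlapped (45.7 and 35.9 with CHIR99021, 48.6 and 29.9 CPM with induced beta-catenin), and its 0 h levels were 2.51 and 2.96 against 0 and 0.214 CPM. PMAIP1 likewise overlapped at 8 h (129 and 102 against 100 and 138 CPM) after 57.7 and 65.3 against 227 and 305 CPM at 0 h, and so did RNF43. SLC30A1 differed at both times, from 63.2 and 82.5 to 22.1 and 29.9 CPM in the bcat arm. GBX2 lost its call without the second bcat 0 h library (adjusted p = 0.0691, a difference of -8.964). IL6R lost it without the second CHIR 0 h library (0.0503), the second bcat 0 h library (0.127) or the first bcat 8 h library (0.0574). RNF43 lost it without the second CHIR 0 h library, the first CHIR 8 h library or the second bcat 0 h library.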

How the results depend on the processing

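The 5075 genes changed between CHIR 0 h and CHIR 8 h became 1281 when libraries were scaled by their totals alone, and 2898 to 3836 with 1 library left out. The 1130 genes that differed from Wnt3a became 1867 with DESeq2, 1780 with only the groups compared in the fit, and 28 with library totals, and ranged from 542 to 1556 with 1 library left out. The 656 that differed from induced beta-catenin became 1063 with DESeq2, 320 with only the groups compared, 22 with library totals and 336 without the 4 libraries that stood apart, and ranged from 239 to 581 with 1 library left out. The causes were not tested. The share of the 5075 calls that were higher (44.04%) was 50.4% with DESeq2 and 51.34% with its size factors. DESeq2 and its size factors moved the median of the difference from induced beta-catenin by 0.113 and 0.109 (log2). Of the 232 named genes none changed sign under any alternative, and the number that lost their call was 72 with library totals, 24 to 37 with 1 library left out and at most 9 under each of the others. Of 100 list counts, 66 moved by over 1.5 times with library totals. The labels do not say that replicate numbers pair the samples, and the differences between replicates at 0 h and 8 h were not correlated (r = -0.0241). With a replicate block 4964 genes were called, 4858 of them shared with the fit without it, and 1092 and 591 genes differed from Wnt3a and from induced beta-catenin. With 2 libraries a group and 20.5 M to 35.2 M counts, changes in genes with few counts are the least certain.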
